A study of Mus musculus with 19 samples.

Results

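Glucocorticoid response was followed in mouse brain through 10 genes, namely Nr3c1, Fkbp5, Sgk1, Tsc22d3, Klf9, Zbtb16, Cdkn1a, Htra1, Sult1a1 and Pdk4. They were taken as every probe set whose single gene symbol in the array's annotation is one of these 10, which gave 30 of the 45037 non-control probe sets. RNA from brain was hybridised to 19 Affymetrix arrays in 4 groups of male mice. The SCA3 CCI-779 group had 5 arrays from transgenic mice given CCI-779 at 20 mg/kg into the peritoneum, 3 injections weekly that began at 5 weeks of age and ran for 6 weeks. The SCA3 placebo group had 5 arrays from transgenic mice injected with placebo on that schedule. The wt CCI-779 group had 5 arrays from wild-type mice given the drug in the same way, and the wt placebo group had 4 arrays from wild-type mice given placebo. All mice received injections, so no group shows brain without that handling. SCA3 is spinocerebellar ataxia type 3, a disease caused by an expanded glutamine tract in ataxin-3, and CCI-779 (temsirolimus) is an ester of rapamycin that inhibits the kinase mTOR. The labels do not name the promoter that drives the transgene, the strain, or the time of day at which brains were taken, and they do not say whether each array is 1 animal, so the p-values below speak of the spread among these arrays, which may be technical.

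Glucocorticoids are adrenal steroids that enter the brain and bind the glucocorticoid receptor, the product of Nr3c1, which is held ready by Hsp90 and its co-chaperones. The bound receptor moves to the nucleus, binds DNA elements made of inverted half-sites, and raises the transcription of genes such as Fkbp5, Sgk1 and Tsc22d3. In rodents the hormone follows a daily rhythm and rises with handling and stress, so these genes vary between animals with the hour and with the circumstances of sampling.

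The tissue was brain by its markers, and 1 array also carried pituitary transcripts. All 8 neuron and all 8 astrocyte marker genes were among the tested genes. On SCA3 placebo replicate 2 the pituitary hormone genes were high, with log2 intensities of 12.09 for Prl, 15.32 for Gh, 11.59 for Pomc and 9.95 for Cga. On the other 18 arrays none of the 4 exceeded 3.55, which was Gh on wt placebo replicate 3. Without this array all calls on member probe sets given below for CCI-779 against placebo stood, except those of Klf9 1436763_a_at in wt mice (adjusted p = 0.055) and of Htra1 1438251_x_at (adjusted p = 0.074) and Nr3c1 1460303_at (adjusted p = 0.072) for the mean of both genotypes. Counts are also given without it below. Bacterial transcripts that are added as hybridisation controls (spike-ins) were dimmer on CCI-779 arrays. They averaged 10.55 ± 0.09 log2 units in the SCA3 CCI-779 group, against 11.36 ± 0.18 in the SCA3 placebo group (SD, n = 5 each; exact permutation p = 0.0079, two-sided, adjusted over 6 tests to 0.024, the smallest p that 5 against 5 allows). They averaged 10.23 ± 0.26 in wt CCI-779 (n = 5), against 11.13 ± 0.29 in wt placebo (n = 4; exact permutation p = 0.016, adjusted 0.032). The 3' minus 5' signal of GAPDH, a measure of RNA integrity and labelling, was also less negative on CCI-779 arrays, at -0.35 ± 0.06 against -0.52 ± 0.03 in SCA3 mice (SD, n = 5 each; exact permutation p = 0.0079, adjusted 0.024) and -0.28 ± 0.32 (n = 5) against -0.54 ± 0.04 (n = 4) in wt mice (exact permutation p = 0.032, adjusted 0.048). The wt difference of 0.26 was 0.12 without wt CCI-779 replicate 1, which stood at 0.28 (exact permutation p = 0.029). The part of these array measures in the CCI-779 differences below was not tested, beyond the fits with each as a covariate: the spike-in level moves almost fully with treatment, and with it in the fit no probe set of the whole array passed for the mean of both genotypes.

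In the brains of CCI-779 mice the glucocorticoid-induced genes Fkbp5, Tsc22d3, Sult1a1 and Zbtb16 were higher than after placebo, by 0.71, 0.47, 0.56 and 0.97 log2 units on average over the 2 genotypes. Fkbp5 was so on 1 of 2 tested probe sets, and Tsc22d3 and Zbtb16 each on 1 of 3. The brightest Zbtb16 probe set, 1419874_x_at, differed by 0.27 and did not pass. Klf9 was higher on 2 of its 6 probe sets, and Nr3c1 was higher on 2 and lower on 1. Sgk1, at 0.53, did not pass the test. The difference in wt mice exceeded 0 for the brightest probe set of all 10 genes, against 66.6% of all genes tested, and that in SCA3 mice for 8 of 10, against 50.6% of all. With each array centred on its median these counts were 9 in wt mice (45% of all genes) and 7 in SCA3 mice (38.5% of all). Genotype made no difference that passed the test, either under placebo or under CCI-779. Levels are log2 of the deposited intensities, fitted with limma over all 4 groups, with p-values adjusted by Benjamini-Hochberg over the 20473 probe sets whose mean log2 intensity reached 4, and a threshold of 0.05. Of the 30 member probe sets, 26 passed that filter. The untested 4 were Fkbp5 1447736_at, Tsc22d3 1444365_at, Klf9 1452723_at and Cdkn1a 1421679_a_at, each near the dim end of the scale in every group.

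CCI-779 arrays differed from placebo arrays for many genes, and the shares of member probe sets that passed are read against that background. For the mean of both genotypes, 8 of the 26 probe sets were higher (30.8%), against 20.1% of all tested probe sets, and 2 were lower (7.69%), against 8.67% of all. In SCA3 mice 2 of 26 were higher (7.69%), against 10.2% of all, and 0 were lower, against 4.95% of all. In wt mice 4 of 26 were higher (15.4%), against 9.78% of all, and 0 were lower, against 2.11%. The median difference for the mean of both genotypes was 0.26 over the 10 genes, each read by its brightest tested probe set, and 0.04 over all 10454 genes tested. The wt count rested on few arrays. It fell to 1 when any of wt CCI-779 array 3 and wt placebo arrays 2 to 4 was left out. It fell to 2 when array 2 or 4 of SCA3 CCI-779, array 5 of SCA3 placebo, or array 2 or 4 of wt CCI-779 was left out. It was 3 without SCA3 placebo replicate 2, the array with pituitary transcripts, and 1 after each array was centred on its median, which takes away a shift of 0.10 log2 units between the wt groups. The count for the mean of both genotypes was 6 without wt placebo replicate 2, 4 without wt placebo replicate 3, and 8 without SCA3 placebo replicate 2. The split of 8 higher and 2 lower became 6 higher and 3 lower after median centring. The SCA3 count was 4 without SCA3 CCI-779 replicate 3, and it was 2 without SCA3 placebo replicate 2. The counts without single arrays and after centring were not set against the share of all probe sets in the same fit.

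**Figure D1:**
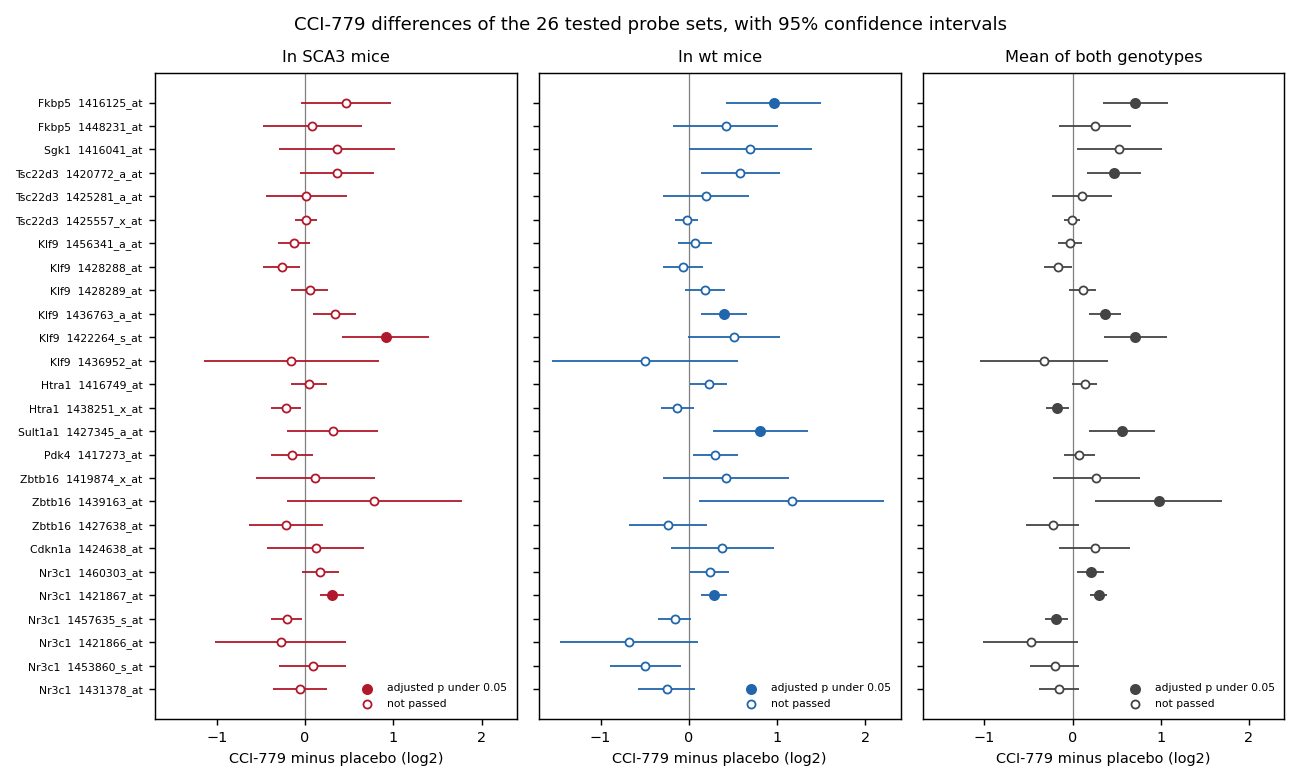
Difference between CCI-779 and placebo (log2, x axis) for each of the 26 tested probe sets (y axis), in SCA3 mice, in wt mice and as the mean of both genotypes. Bars are 95% confidence intervals and filled points passed the adjusted p threshold: 2 in SCA3 mice, 4 in wt mice and 10 for the mean of both. Probe sets of Klf9 and of Nr3c1 lie on both sides of 0.

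Promoters of 4 of the genes, Sgk1 among them although it did not pass, are shown because the receptor is known to act through inverted half-sites in DNA. RefSeq windows of 250 bases before each annotated start (GRCm38.p6) were matched by symbol for 8 of the 10 genes, in 16 windows, with none for Zbtb16 and Nr3c1. The motifs were searched on both strands, as the palindrome GNACANNNTGTNC and as the half-site TGTTCT or its complement AGAACA, which can lie inside the palindrome. The palindrome was in 1 of the 16 windows, 1 of the 6 of Sgk1, and in 0.387% of all 32851 promoter windows of that length. A half-site was in 5 of the 16 windows, 3 of Sgk1, 1 of Sult1a1 and 1 of Tsc22d3, and in 16.1% of all windows. The window of Fkbp5 held neither. Each sequence runs 5' to 3' and ends at the base before the annotated start, with matches to either motif in capitals.
Sgk1, chr10:21993640-21993889, forward strand: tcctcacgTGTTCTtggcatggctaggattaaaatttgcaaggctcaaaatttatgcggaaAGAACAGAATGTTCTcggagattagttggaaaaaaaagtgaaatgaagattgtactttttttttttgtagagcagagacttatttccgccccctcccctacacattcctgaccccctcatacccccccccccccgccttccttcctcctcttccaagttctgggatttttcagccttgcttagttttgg
Sult1a1, chr7:126676419-126676668, reverse strand: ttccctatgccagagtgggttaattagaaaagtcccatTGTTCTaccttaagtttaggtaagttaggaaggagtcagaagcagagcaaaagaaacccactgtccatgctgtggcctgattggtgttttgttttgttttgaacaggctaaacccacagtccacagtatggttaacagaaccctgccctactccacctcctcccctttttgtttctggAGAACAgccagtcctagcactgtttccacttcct
Tsc22d3, chrX:140600523-140600772, reverse strand: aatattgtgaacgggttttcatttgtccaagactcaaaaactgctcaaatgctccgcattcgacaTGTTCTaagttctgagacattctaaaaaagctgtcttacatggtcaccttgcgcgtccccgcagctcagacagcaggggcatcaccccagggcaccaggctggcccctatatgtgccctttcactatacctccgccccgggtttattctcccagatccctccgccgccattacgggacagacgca
Fkbp5, chr17:28486150-28486399, reverse strand: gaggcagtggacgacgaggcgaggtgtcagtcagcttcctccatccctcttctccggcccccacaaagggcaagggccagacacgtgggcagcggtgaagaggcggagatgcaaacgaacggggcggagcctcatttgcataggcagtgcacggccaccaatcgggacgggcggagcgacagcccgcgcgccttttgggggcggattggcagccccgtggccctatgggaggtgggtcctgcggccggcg
In the Sgk1 window the palindrome begins at position -188, counted from the start, and half-sites begin at -242, -189 and -180. In Sult1a1 the half-sites begin at -212 and -34, and in Tsc22d3 at -185. These are matches of letters, and the files hold no measure of receptor binding.

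The receptor gene itself moved little. Nr3c1 was read by 6 tested probe sets that disagreed in direction. On 1421867_at, log2 levels were 9.90, 9.95, 10.01, 10.04 and 9.99 in the SCA3 CCI-779 group, against 9.66, 9.55, 9.86, 9.75 and 9.55 in SCA3 placebo. On the same probe set they were 9.97, 9.73, 9.67, 9.82 and 9.74 in wt CCI-779, against 9.58, 9.47, 9.50 and 9.485 in wt placebo. Within each genotype every CCI-779 array lay above every placebo array. The difference was 0.31 ± 0.07 in SCA3 mice (SE; limma adjusted p = 0.0057), 0.28 ± 0.07 in wt mice (adjusted p = 0.016) and 0.29 ± 0.05 for the mean of both (adjusted p = 3.3e-04), a fold of 1.23. This call held for the mean without any single array. In wt mice it was lost after quantile normalization (0.19, adjusted p = 0.067) and after median centring (0.18, adjusted p = 0.093).

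The brightest Nr3c1 probe set, 1460303_at, had levels of 10.45, 10.65, 10.62, 10.72 and 10.68 in SCA3 CCI-779, against 10.75, 10.18, 10.49, 10.27 and 10.55 in SCA3 placebo. It had 10.61, 10.45, 10.43, 10.76 and 10.61 in wt CCI-779, against 10.18, 10.50, 10.25 and 10.39 in wt placebo. The groups overlapped, and the mean difference of 0.21 ± 0.07 (limma adjusted p = 0.040) was lost without any 1 of 13 arrays (adjusted p 0.051 to 0.080), numbers 2 to 5 of SCA3 CCI-779, 2 to 4 of SCA3 placebo, 1, 4 and 5 of wt CCI-779, and 1, 3 and 4 of wt placebo. Another probe set, 1457635_s_at, was lower by 0.19 log2 units (limma adjusted p = 0.031 for the mean of both), with a call lost without any 1 of 7 arrays: number 1 of SCA3 CCI-779, 1 of SCA3 placebo, 2 and 3 of wt CCI-779, and 2 to 4 of wt placebo. The other 3 probe sets, 1421866_at, 1453860_s_at and 1431378_at, had mean differences of -0.48, -0.20 and -0.15 that did not pass. Without wt CCI-779 replicate 1 the first of these was -0.23 and the second -0.10, and without wt placebo replicate 2 the last was -0.060. The mean over all 6 probe sets gave -0.086.

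Few of the receptor's partners passed. Of 19 genes in the receptor machinery list (the mineralocorticoid receptor, the 11-beta-hydroxysteroid dehydrogenases, Hsp90 and its co-chaperones, co-regulators, a steroid transporter, and the hypothalamic and pituitary hormones upstream), 12 were tested and 1 was higher, against 22% of all genes tested, while none was lower, against 8.26%. The gene was Bag1, a co-chaperone that binds the receptor complex, at 0.17 ± 0.05 (limma adjusted p = 0.012). Stip1, which links Hsp70 to Hsp90, differed by -0.19, the hormone gene Crh by -0.27 and its receptor Crhr1 by 0.16, and none of these passed. In SCA3 mice and in wt mice taken alone, none of the 12 passed, against 11% higher and 6.09% lower of all genes in SCA3 mice and 11.5% higher and 1.64% lower in wt mice.

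Fkbp5 encodes FKBP51, an Hsp90 co-chaperone that lowers the receptor's affinity for hormone and is induced by the receptor, which makes it a standard readout of glucocorticoid action. On 1416125_at its log2 levels were 9.66, 8.46, 8.62, 8.47 and 8.38 in SCA3 CCI-779, against 8.45, 8.42, 8.13, 7.82 and 8.45 in SCA3 placebo. They were 9.28, 9.35, 9.64, 8.67 and 8.67 in wt CCI-779, against 8.56, 8.12, 8.19 and 7.77 in wt placebo. In wt mice every CCI-779 array lay above every placebo array. In SCA3 mice the groups overlapped, and replicate 1 alone lay more than 1 log2 unit above the lowest array of its own group. The difference was 0.96 ± 0.26 in wt mice (SE; limma adjusted p = 0.023, fold 1.94) and 0.47 ± 0.24 in SCA3 mice (adjusted p = 0.20), where it was 0.23 without SCA3 CCI-779 replicate 1 (adjusted p = 0.48). The 2 effects differed by -0.49, with a 95% interval of -1.24 to 0.25 (SCA3 minus wt, limma adjusted p = 0.75), so no difference between genotypes was shown. For the mean of both genotypes Fkbp5 was higher by 0.71 ± 0.18 (limma adjusted p = 0.0061, fold 1.64), and over the 19 fits that each left out 1 array the adjusted p stayed between 0.0043 and 0.017. It was 0.058 with the GAPDH measure as a covariate and 0.63 with the spike-in level, at differences of 0.63 and 0.70. The wt call was lost without wt CCI-779 replicate 3 or wt placebo replicate 2, 3 or 4 (adjusted p 0.053 to 0.079). The dimmer probe set 1448231_at differed by 0.25 for the mean of both and did not pass, and its array deviations correlated with those of the bright one at r = 0.68.

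Sgk1 encodes a kinase that regulates ion channels and transporters. Its log2 levels on 1416041_at were 11.78, 10.75, 10.69, 11.54 and 11.02 in SCA3 CCI-779, against 10.60, 10.88, 10.71, 10.76 and 11.01 in SCA3 placebo. In wt CCI-779 they were 10.95, 10.80, 12.88, 11.63 and 11.90, against 11.31, 10.57, 11.17 and 10.68 in wt placebo. Both pairs of groups overlapped, and wt CCI-779 replicate 3 was the highest of all 19. The differences were 0.36 ± 0.31 in SCA3 mice, 0.70 ± 0.33 in wt mice and 0.53 ± 0.23 for the mean of both (SE; limma adjusted p = 0.46, 0.17 and 0.087). Without wt CCI-779 replicate 3 the wt difference was 0.39 (adjusted p = 0.36) and the mean 0.38, and without SCA3 CCI-779 replicate 1 the SCA3 difference was 0.21 (adjusted p = 0.71). The mean passed without wt CCI-779 replicate 1 (0.62, adjusted p = 0.046) and without wt CCI-779 replicate 2 (0.63, adjusted p = 0.037).

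Tsc22d3 encodes GILZ, a leucine zipper protein through which glucocorticoids damp inflammatory signalling. On 1420772_a_at its log2 levels were 9.90, 10.12, 9.43, 9.89 and 10.05 in SCA3 CCI-779, against 9.53, 9.44, 9.55, 9.29 and 9.77 in SCA3 placebo. They were 9.73, 9.84, 10.53, 10.46 and 10.38 in wt CCI-779, against 10.27, 9.22, 9.25 and 9.68 in wt placebo. Groups overlapped in both genotypes, in SCA3 mice through 1 low CCI-779 array and in wt mice through 1 high placebo array. The mean difference was 0.47 ± 0.15 (SE; limma adjusted p = 0.022, fold 1.39), with 0.36 in SCA3 mice and 0.58 in wt mice, neither of which passed alone. The mean was lost without wt placebo replicate 2 or 3 (adjusted p = 0.054 and 0.052) and with no filter on dim probe sets (adjusted p = 0.057), and it was -0.36 with the spike-in covariate. Without wt placebo replicate 1, or without wt CCI-779 replicate 1, the wt difference passed (adjusted p 0.013 to 0.050). A second bright probe set, 1425281_a_at, followed the first from array to array (r = 0.94) but differed by 0.11 and did not pass.

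Klf9, a zinc finger transcription factor induced by glucocorticoids and thyroid hormone in neurons, was read by 6 tested probe sets that did not agree. The 3 brightest, 1456341_a_at, 1428288_at and 1428289_at, had mean differences of -0.03, -0.17 and 0.12 that did not pass. Probe set 1422264_s_at had log2 levels of 9.995, 10.25, 9.33, 9.38 and 10.85 in SCA3 CCI-779, against 9.29, 9.03, 8.90, 8.74 and 9.29 in SCA3 placebo. It had 9.26, 9.72, 10.07, 9.38 and 9.30 in wt CCI-779, against 9.23, 8.99, 8.93 and 8.9996 in wt placebo. On this probe set every CCI-779 array lay above every placebo array of its genotype. It was higher by 0.91 ± 0.23 in SCA3 mice (SE; limma adjusted p = 0.015) and by 0.71 ± 0.17 for the mean of both (adjusted p = 0.0050), while 0.51 ± 0.25 in wt mice did not pass (adjusted p = 0.18). With arrays 2 and 5 of SCA3 CCI-779 left out together, the SCA3 difference was 0.52 (limma adjusted p = 0.12). These arrays also stood apart on Gfap (11.28 and 11.19, against at most 9.84 on any other array). The same held for Nr1d1 (7.48 and 7.21, against at most 5.54). Both genes were named after their values were seen. Probe set 1436763_a_at was higher by 0.37 ± 0.09 for the mean of both (limma adjusted p = 0.0042) and by 0.40 in wt mice (adjusted p = 0.046). The wt call on it was lost without any 1 of 13 arrays: numbers 1, 2, 4 and 5 of SCA3 CCI-779, 2 and 5 of SCA3 placebo, 1 to 4 of wt CCI-779, and 2 to 4 of wt placebo. The array deviations of these 2 responding probe sets correlated at r = 0.67, and those of 1422264_s_at with the brightest probe set at -0.23. The sixth, 1436952_at, ranged from 5.27 to 8.85 within wt CCI-779 and differed by -0.32, which did not pass and was 0.018 without wt CCI-779 replicate 1.

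Zbtb16, a BTB zinc finger repressor also called PLZF, rose on 1 of its 3 tested probe sets. On 1439163_at its log2 levels were 8.68, 6.77, 7.25, 7.51 and 6.80 in SCA3 CCI-779, against 7.54, 7.26, 6.30, 5.83 and 6.14 in SCA3 placebo. They were 9.55, 8.40, 8.81, 7.17 and 7.11 in wt CCI-779, against 7.42, 7.09, 7.24 and 6.43 in wt placebo. The groups overlapped in both genotypes, and the spread inside each CCI-779 group was wide (SD 0.78 in SCA3 and 1.06 in wt). The mean difference was 0.97 ± 0.34 (SE; limma adjusted p = 0.041, fold 1.97). It was lost after quantile normalization (adjusted p = 0.053), after median centring (adjusted p = 0.051) and with no filter on dim probe sets (adjusted p = 0.11), and it was 0.44 with the GAPDH covariate (adjusted p = 0.44). It was also lost without any 1 of 11 arrays (adjusted p 0.055 to 0.087): numbers 1 and 4 of SCA3 CCI-779, 3 to 5 of SCA3 placebo, 1 to 3 of wt CCI-779, and 2 to 4 of wt placebo. The brightest probe set, 1419874_x_at, moved with it from array to array (r = 0.91) but differed by 0.27 (0.14 without SCA3 CCI-779 replicate 1) and did not pass. The third, 1427638_at, near the filter, differed by -0.23 and did not pass.

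Sult1a1, a cytosolic sulfotransferase of phenols and catecholamines, had 1 probe set, 1427345_a_at. Its log2 levels were 7.19, 6.34, 6.47, 6.63 and 6.11 in SCA3 CCI-779, against 6.37, 6.70, 5.82, 5.73 and 6.56 in SCA3 placebo. They were 7.22, 7.14, 7.72, 7.20 and 6.996 in wt CCI-779, against 7.20, 6.03, 6.15 and 6.39 in wt placebo. In wt mice 1 placebo array, replicate 1, reached the CCI-779 range. The difference was 0.81 ± 0.26 in wt mice (SE; limma adjusted p = 0.049), 0.31 ± 0.24 in SCA3 mice (adjusted p = 0.41) and 0.56 ± 0.18 for the mean of both (adjusted p = 0.024, fold 1.48). The mean was lost without wt placebo replicate 2 or 3 (adjusted p = 0.059 and 0.054) and with no filter on dim probe sets (adjusted p = 0.064) or with the GAPDH covariate (adjusted p = 0.077), and it was -0.10 with the spike-in covariate. In SCA3 mice the difference was 0.15 without SCA3 CCI-779 replicate 1 and 0.19 without SCA3 placebo replicate 4. The wt call was lost after quantile normalization (adjusted p = 0.070) and median centring (adjusted p = 0.075). It was also lost without any 1 of 13 arrays (adjusted p 0.051 to 0.15), numbers 2 to 4 of SCA3 CCI-779, 1, 3 and 5 of SCA3 placebo, 1 to 4 of wt CCI-779, and 2 to 4 of wt placebo.

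The other 3 genes gave no rise that passed. Cdkn1a, the cell cycle inhibitor p21, had log2 levels of 8.40, 7.65, 7.65, 7.43 and 7.21 in SCA3 CCI-779, against 7.67, 7.67, 7.41, 7.27 and 7.72 in SCA3 placebo. It had 8.01, 7.89, 9.24, 7.72 and 7.41 in wt CCI-779, against 7.65, 7.59, 7.83 and 7.63 in wt placebo. Its mean difference of 0.25 ± 0.19 (SE, limma adjusted p = 0.34) did not pass. SCA3 CCI-779 replicate 1 and wt CCI-779 replicate 3 were the highest arrays of their groups. In wt CCI-779, replicates 1 and 2 (8.01 and 7.89) also lay above the highest wt placebo array (7.83). The other CCI-779 arrays did not exceed the placebo range of their genotype. Without wt CCI-779 replicate 3 the mean difference was 0.10, and without SCA3 CCI-779 replicate 1 it was 0.16. Htra1, a secreted serine protease, had levels of 11.30, 10.98, 11.30, 11.22 and 10.75 in SCA3 CCI-779, against 11.13, 11.08, 10.99, 10.95 and 11.16 in SCA3 placebo on 1416749_at. It had 11.30, 11.45, 11.47, 11.37 and 11.25 in wt CCI-779, against 11.33, 11.08, 11.09 and 11.06 in wt placebo, where only placebo replicate 1 overlapped the CCI-779 range. The mean difference was 0.14 (limma adjusted p = 0.15), and it passed at 0.18 without SCA3 CCI-779 replicate 5 (adjusted p = 0.027). Its other probe set, 1438251_x_at, was lower by 0.17 (limma adjusted p = 0.040), a call lost without any 1 of 12 arrays: numbers 2, 4 and 5 of SCA3 CCI-779, 2, 4 and 5 of SCA3 placebo, 2 to 5 of wt CCI-779, and 1 and 3 of wt placebo.

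Pdk4, the kinase that shuts down pyruvate dehydrogenase in fasting, was dim. Its log2 levels were 6.07, 6.00, 6.04, 5.84 and 5.91 in SCA3 CCI-779, against 6.09, 5.95, 6.08, 5.96 and 6.53 in SCA3 placebo. They were 6.04, 6.17, 6.501, 6.42 and 5.90 in wt CCI-779, against 5.90, 5.94, 5.90 and 5.88 in wt placebo. The CCI-779 difference was -0.15 in SCA3 mice (-0.046 without SCA3 placebo replicate 5) and 0.30 in wt mice, and neither passed, although the wt difference passed without wt CCI-779 replicate 5 (0.38, limma adjusted p = 0.044). The effects differed by -0.45 with a 95% interval of -0.80 to -0.10, at an unadjusted p of 0.015 and a limma adjusted p of 0.59.

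**Figure D2:**
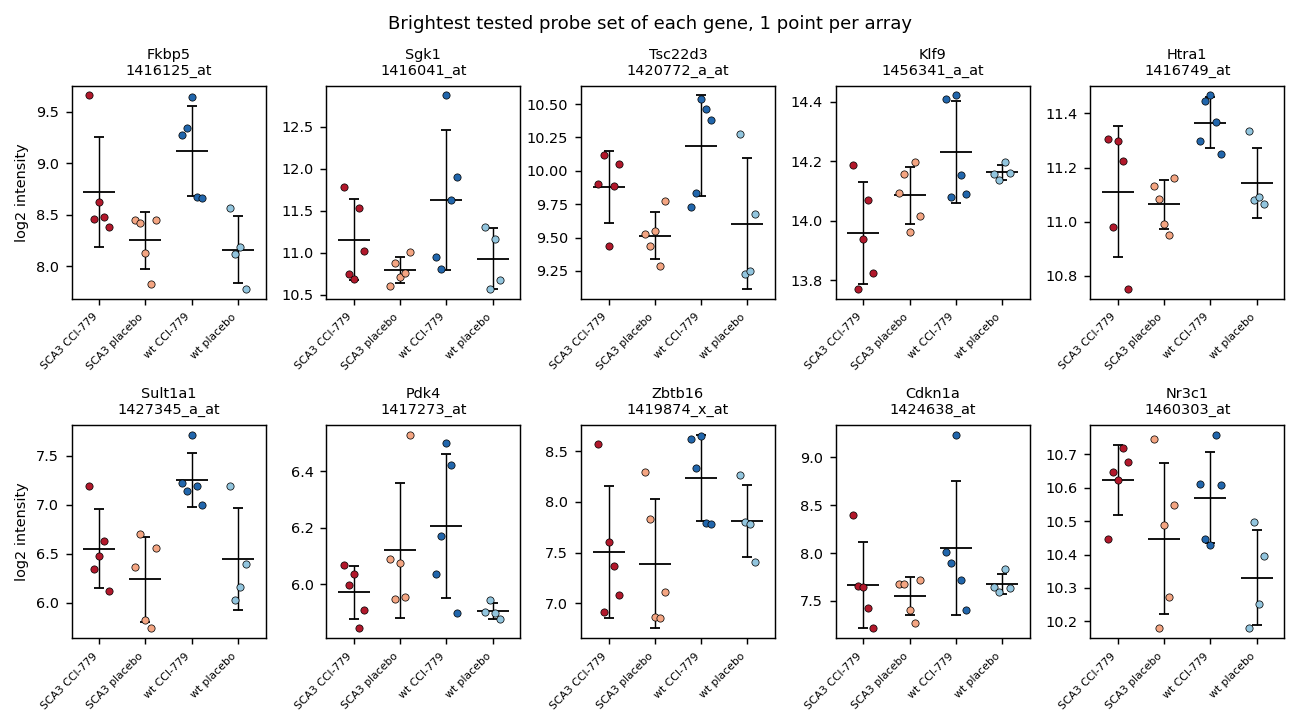
Log2 intensity of the brightest tested probe set of each gene (y axis) by group (x axis), with 1 point per array and the mean ± SD of each group. Fkbp5 in wt CCI-779 lies wholly above wt placebo, and single CCI-779 arrays stand above the rest of their group for Fkbp5 (9.66 in SCA3), Sgk1 (12.88 in wt) and Cdkn1a (9.24 in wt).

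No genotype difference passed the test. Between SCA3 placebo and wt placebo 0 of 26 member probe sets passed in limma, against 0.00977% of all. An unadjusted limma p under 0.05 was found for 1 of the 26 (Nr3c1 1421867_at, difference 0.16), against 1177 of all 20473. For Pdk4, every SCA3 placebo array lay above every wt placebo array, by 0.21 on average (limma adjusted p = 0.89), with the lowest SCA3 placebo array at 5.949 and the highest wt placebo array at 5.944. Between SCA3 CCI-779 and wt CCI-779 0 of 26 passed, against 0.00977% of all. Here 8 of the 26 had an unadjusted limma p under 0.05, against 3163 of all 20473. In that comparison 9 of the 10 genes were lower in SCA3 CCI-779, against 61.4% of all genes, with a median of -0.35 against -0.04 over all genes, and Sult1a1 differed by -0.70 and Fkbp5 by -0.40. In limma the interaction of genotype and drug passed for 0 of 26, against 0% of all. Its unadjusted p was under 0.05 for 2 of the 26, against 1573 of all 20473. Each of these counts of 0 was also 0 in every alternative fit, and without SCA3 placebo replicate 2 the placebo comparison gave 0 as well.

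Glucocorticoid-induced genes outside the 10 passed about as often as all genes did, with a higher median difference. Of a list of 26 such genes 22 were tested, and for the mean of both genotypes 6 were higher (against 22% of all genes) and 0 lower (against 8.26%). They were Per1, Rhob, Bcl6 and Ehd3, with Mt2 and Cebpb, which were named after their values were seen. The list median was 0.20, against 0.04 over all genes, and 18 of 22 differences were above 0, against 58.8% of all genes. The count was 6 or 7 when any single array was left out, the one with pituitary transcripts included, and it was 6 higher and 3 lower after median centring. Per1, a clock gene that the receptor also induces, had log2 levels of 6.58, 7.94, 6.12, 7.84 and 8.21 in SCA3 CCI-779, against 5.97, 5.7999, 6.14, 6.196 and 6.63 in SCA3 placebo. It had 6.85, 6.30, 6.98, 7.07 and 6.32 in wt CCI-779, against 6.14, 5.08, 5.91 and 5.90 in wt placebo, so that all wt CCI-779 arrays lay above all wt placebo arrays. Its mean difference was 1.07 ± 0.25 (SE; limma adjusted p = 0.0040). The transcriptional repressor Bcl6 was higher by 0.35 ± 0.07 (adjusted p = 0.0023), the small GTPase Rhob by 0.39 ± 0.09 (adjusted p = 0.0040) and the endocytic ATPase Ehd3 by 0.40 ± 0.10 (adjusted p = 0.0065). In SCA3 mice 2 of the 22 passed (Per1 and Rhob, both higher, against 11% of all genes), which was 0 without SCA3 placebo replicate 2. In wt mice 3 passed (Bcl6, Mt2 and Cebpb, all higher, against 11.5%). Within SCA3 CCI-779, Rhob was 13.28 and 13.31 on arrays 2 and 5, against 12.71 to 12.83 on the rest. SCA3 placebo reached 12.70 at most. Ehd3 was 9.62 and 9.78 on that pair, against 9.21 to 9.37 on the rest. Per1 was also highest on the pair, with array 4 close at 7.84. The same pair was high in Gfap and Nr1d1 above, and its part in these rises was not tested. The stress kinase phosphatase Dusp1 (0.10), the mTOR inhibitor Ddit4 (0.18) and glutamine synthetase Glul (-0.09) did not pass, and these 3 were named after their values were seen.

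In lists of other routes to the same genes, the genes that passed differed in direction. The 1 p53 target that passed was lower, the FOXO targets were mostly lower and the clock genes were all higher. Median differences for the mean of both genotypes were 0.007, 0.03 and 0.19 over the tested p53, FOXO and clock genes, against 0.04 over all genes. Differences above 0 numbered 4 of 8, 7 of 12 and 11 of 14, against 58.8% of all genes. Of all genes, 22% were higher and 8.26% lower for the mean of both genotypes. Cdkn1a is also a p53 target, and of 12 other p53 targets 8 were tested, of which 0 were higher and 1, Ccng1, was lower (-0.17, limma adjusted p = 0.022). Sesn1 differed by 0.19, Phlda3 by 0.24 and Sesn2 by -0.05, and none of these passed. Klf9, Pdk4 and Cdkn1a are also targets of FOXO factors, and of 12 other FOXO targets, all tested, 1 was higher and 4 lower. The higher one was Cited2, a transcriptional co-regulator (0.33, limma adjusted p = 0.0012), and the lower ones included the mitophagy gene Bnip3 (-0.25), the ubiquitin ligase Fbxo32 (-0.40) and catalase, Cat (-0.25). In SCA3 mice 1 FOXO target was higher (against 11% of all genes) and 4 lower (against 6.09%), or 3 lower without SCA3 placebo replicate 2. In wt mice 1 was higher (against 11.5%) and 0 lower (against 1.64%). Of 15 clock genes 14 were tested and 6 were higher, among them Hlf (0.36), Per3 (0.30), Cry2 (0.22) and Per1, which stands in both lists, and 0 were lower. Without SCA3 placebo replicate 2 the counts of these 3 lists and of the receptor machinery were the same for the mean of both genotypes.

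Several of the 10 genes were high or low on the same arrays. The counts here were not set against a share over all tested genes, and arrays differed in general level. The median log2 over tested probe sets was 8.20 on wt CCI-779 replicates 3 and 4. It was 8.04 and 8.03 on wt placebo replicates 2 and 3, and 8.09 and 8.17 on SCA3 CCI-779 replicates 1 and 2. The part of that level in the counts was not tested. On wt CCI-779 replicate 3, 7 of the 10 reached their highest level of all 19 arrays. Of the 10 genes, 10 lay above their own 19-array median on wt CCI-779 replicate 4 and 9 on SCA3 CCI-779 replicate 1 and on wt CCI-779 replicate 3. Among placebo arrays, wt placebo replicate 1 had 7 genes above their median and the other 3 wt placebo arrays had 1 to 3, while SCA3 placebo arrays had 1 to 4. The range within SCA3 CCI-779 was as wide, with 2 genes on replicate 2 and 3 on replicate 5.

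To describe this apart from the group means, each array's deviation from its group mean was correlated between genes over the 19 arrays, which share groups, arrays and handling, so no test is given. The median r over the 45 pairs of the 10 genes was 0.38, against 0.077 over all pairs of the 10454 genes, and r exceeded 0.5 in 37.8% of the member pairs, against 8.83% of all pairs. That median rested in part on 2 arrays. It was 0.25 without wt CCI-779 replicate 3, 0.32 without SCA3 CCI-779 replicate 1, 0.18 without both, and 0.41 without SCA3 placebo replicate 2. The tie of Fkbp5 to Zbtb16, read by 1419874_x_at, was firmer, at r = 0.86 (rho 0.83), and 0.77 without both arrays; read by 1439163_at it was 0.82. Fkbp5 correlated with Cdkn1a at r = 0.79 (rho 0.74) and with Sult1a1 at r = 0.76 (rho 0.67). Leaving out the 2 arrays most extreme in Fkbp5 gave 0.79 for Zbtb16, 0.69 for Cdkn1a and 0.65 for Sult1a1. The 5 genes Fkbp5, Zbtb16, Cdkn1a, Sult1a1 and Htra1, grouped after their values were seen, had a median r of 0.68 over 10 pairs.

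Between brightest probe sets, Sgk1 and Tsc22d3 followed Fkbp5 less than each other. Tsc22d3 correlated with Fkbp5 at r = 0.07 (rho -0.02) and with Sgk1 at r = 0.57 (rho 0.53), which was 0.48 without the 2 arrays most extreme in Sgk1. Sgk1 correlated with Fkbp5 at r = 0.38 (rho 0.23), which became -0.10 without the 2 arrays most extreme in Fkbp5. Some dimmer probe sets gave higher values, as Fkbp5 correlated with Tsc22d3 1425557_x_at at r = 0.59, and Fkbp5 1448231_at with Sgk1 at 0.52 and with Tsc22d3 at 0.34. Others did not, as Fkbp5 correlated with Tsc22d3 1425281_a_at at r = -0.03. Probe set 1425557_x_at varied little, with group means from 6.21 to 6.23 and an SD within groups of 0.013 to 0.13. On its brightest probe set the receptor gene Nr3c1 went the other way with most genes, at a median r of -0.31 with the other 9, from -0.41 with Fkbp5 to 0.14 with Pdk4. Without the 2 arrays most extreme in the other gene, r ran from -0.51 with Zbtb16 to 0.22 with Pdk4. It was then -0.22 with Fkbp5 and -0.08 with Cdkn1a. The other Nr3c1 probe sets ran from -0.48 (1457635_s_at) to 0.14 (1431378_at) with Fkbp5, and from -0.45 (1457635_s_at) to 0.36 (1421866_at) with Tsc22d3. The mean deviation of the 22 other glucocorticoid-induced genes correlated with Sgk1 at r = 0.72 and with Tsc22d3 at 0.78, but with Fkbp5 at 0.27. Among the other gene lists the highest values were 0.47 for Sgk1 (FOXO targets), 0.65 for Tsc22d3 (p53 targets) and 0.43 for Fkbp5 (1 blood gene).

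**Figure D3:**
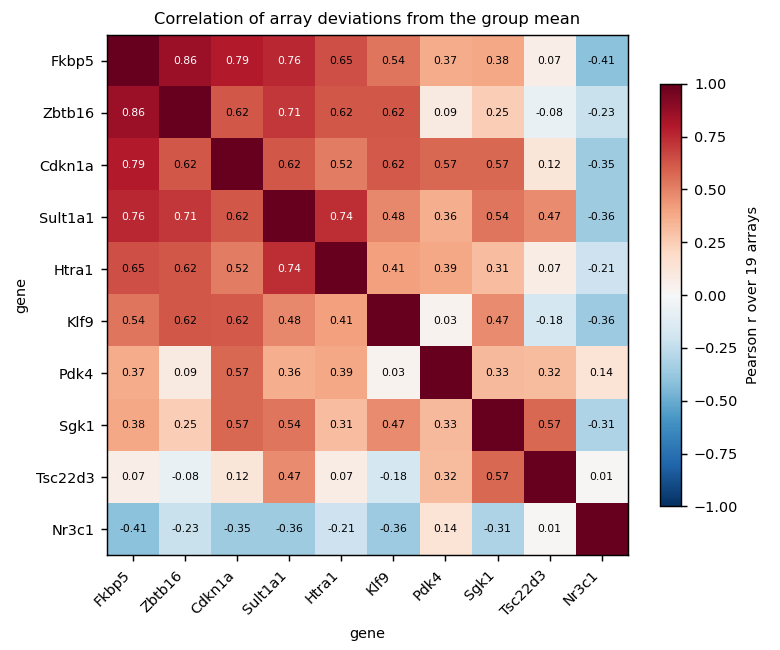
Pearson correlation over 19 arrays between the array deviations of each pair of genes, after group means were taken away; both axes list the 10 genes and the colour runs from -1 to 1. Fkbp5, Zbtb16, Cdkn1a, Sult1a1 and Htra1 form a block with r from 0.52 to 0.86, while Nr3c1 is at or below 0.14 with every other gene.

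Among the 10453 other genes tested, those most like Fkbp5 over the 19 array deviations were Xdh, which makes uric acid (r = 0.89, rho 0.86), Rilpl1 (r = 0.87, rho 0.89) and Gm19439 (r = 0.86, rho 0.82). The phagocytic receptor Mertk ranked 4 and Zbtb16 ranked 6, with Cdkn1a at 14 and Sult1a1 at 23. Those most like Sgk1 were Nfkbia, the inhibitor of NF-kappa-B (r = 0.94, rho 0.89), Ddit4 (r = 0.83, rho 0.73) and the kinase Pim3 (r = 0.80, rho 0.85). Gadd45g ranked 5 and Cebpd 6, named like Mertk after their values were seen, and both are in the list of 26 glucocorticoid-induced genes, as are Nfkbia, Ddit4 and Mertk. Those most like Tsc22d3 were the transcription factor Jun (r = 0.86, rho 0.90), Elmo2 (r = 0.84, rho 0.83) and the proteasome subunit Psmd8 (r = 0.83, rho 0.87). Without the 2 arrays most extreme in each of the 3 members these 9 correlations ran from 0.64 to 0.90.

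**Figure D4:**
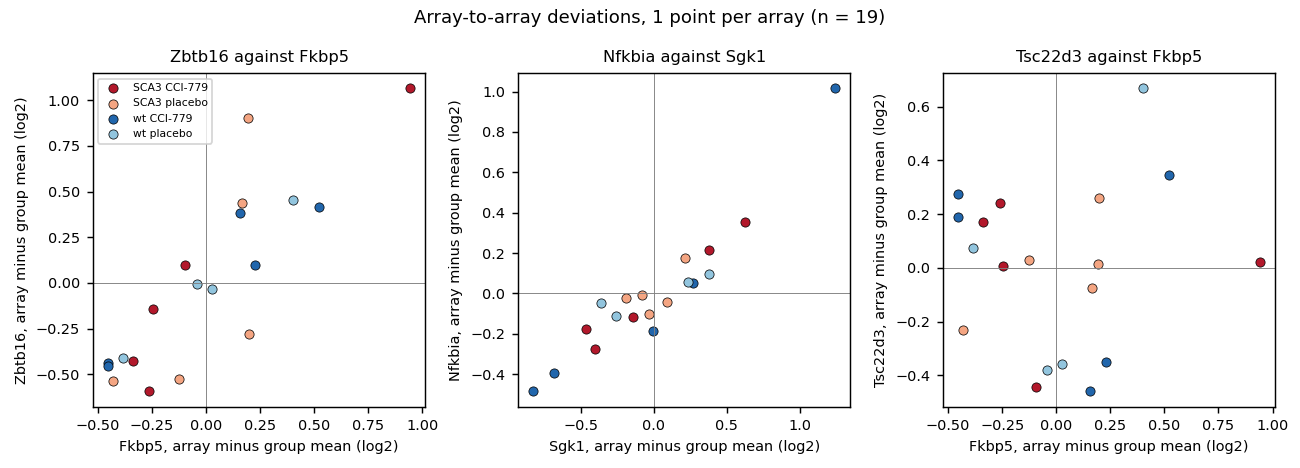
Array minus group mean (log2) of Zbtb16 against Fkbp5, of Nfkbia against Sgk1, and of Tsc22d3 against Fkbp5, with 1 point per array (n = 19) coloured by group. The first pair follows a line (r = 0.86), the second does so with wt CCI-779 replicate 3 at its far end (r = 0.94), and the third shows none (r = 0.07).

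Measures of the arrays and of cell content moved with some of the members, and their part in these patterns was not tested. Over the 19 array deviations, the spike-in level correlated with Tsc22d3 at r = -0.61 and with Sgk1 at r = -0.52, but with Fkbp5 at r = -0.01. The 3' minus 5' signal of actin correlated with the brightest Klf9 probe set at r = 0.70, and wt CCI-779 replicate 1 had the highest value of that measure, 2.55. The mean of 7 endothelial markers correlated with Fkbp5 at r = -0.70 and with Zbtb16 at -0.62, and the mean of 8 neuronal markers with Zbtb16 at -0.73.

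With CCI-779, 7 of 11 tested oligodendrocyte markers and 6 of 8 microglia markers were lower for the mean of both genotypes, against 8.26% of all genes, among them Cnp (-0.42), Ugt8a (-0.58), Csf1r (-0.49) and P2ry12 (-0.57). In SCA3 mice 7 oligodendrocyte and 5 microglia markers were lower, against 6.09% of all genes. In wt mice the counts were 0 and 3, against 1.64% of all genes. The median oligodendrocyte difference was -0.41 in SCA3 mice and -0.058 in wt mice. In bulk tissue fewer cells of a type and less RNA per cell cannot be told apart. The summed level of the 8 microglia markers ran from 11.53 to 11.95 in SCA3 CCI-779 against 12.09 to 12.21 in SCA3 placebo, and from 11.58 to 11.88 in wt CCI-779 against 12.10 to 12.28 in wt placebo, so the groups did not overlap. Among astrocyte markers 2 of 8 were higher, against 22% of all genes, Slc1a2 (0.23) and Aldh1l1 (0.28), and of 6 tested meningeal markers 3 were, Aldh1a2 (0.61), Igfbp2 (0.52) and Bgn (0.34). Of 8 neuronal markers 2 were lower, Rbfox3 (-0.32) and Syt1 (-0.18), while 0 of 7 endothelial, 0 of 6 choroid plexus and 0 of 8 immediate early genes passed, and the 1 tested blood gene, Alas2, did not either (-0.20). Without SCA3 placebo replicate 2 the astrocyte count was 3 and the neuronal count 1, and the other marker counts for the mean of both genotypes were the same. The wt oligodendrocyte count was then 2, and the other counts by genotype given here were the same.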

How the data were processed

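Brain RNA was labelled with biotin and hybridised to Affymetrix arrays. The deposited table holds 1 linear intensity per probe set and array, normalized by the authors with GCRMA, per the submitters' processing notes (version not given in the sources used here); the values ran from 2.26 to 73595, so none was 0. These intensities were taken to log2 without a pseudocount. Control probe sets were left out (64), and probe sets with a mean log2 of at least 4 were tested (20473). Arrays were grouped by their titles, and 4 group means were fitted over 19 arrays with limma 3.58.1 in R 4.3.3 (15 residual degrees of freedom, 6 contrasts, Benjamini-Hochberg over all tested probe sets). The procedure was tested on simulated data. A gene is read by its brightest tested probe set; probe sets with several gene symbols were left unnamed. Named genes are all members, up to 4 genes per list with the smallest p for the mean of both genotypes, and the 3 genes most like each of Fkbp5, Sgk1 and Tsc22d3; a few others are marked where they appear as named after their values were seen. The members, lists and tests were chosen with earlier results of these data known. The number of arrays limits the precision. Alternatives changed the filter, normalization, variance model, array weights, arrays used, a replicate block, array covariates and the probe sets read.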

Additional observations from a re-analysis of the deposited data

Results flagged for a closer look

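In 40 comparisons of the highest and lowest array with the rest of its group, for 10 genes in 4 groups, 3 arrays stood further from their nearest neighbour than Dixon's 95% critical value allows, where chance gives about 1 in 20. Fkbp5 was 9.66 in SCA3 CCI-779 replicate 1, and the next array of that group was at 8.62 and the lowest at 8.38. Htra1 was 11.33 in wt placebo replicate 1, with the next array at 11.09 and the lowest at 11.06. Pdk4 was 6.53 in SCA3 placebo replicate 5, with the next array at 6.09 and the lowest at 5.95.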

How the results depend on the processing

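The counts of member probe sets that passed, 2 in SCA3 mice, 4 in wt mice and 10 for the mean of both genotypes, depended on the processing, and the cause was not tested. The counts below are not set against the share of all probe sets that passed in the same fit. A change in them may therefore be common to the whole array. With no filter on dim probe sets the wt count was 1 and the mean 4, with more probe sets to adjust for. The wt count was 1 after quantile normalization again, 9 with array weights and 2 with the compared arrays alone. With each array centred on its median, the SCA3 count was 4 and the wt count 1. With the GAPDH difference as a covariate the counts were 4, 1 and 6, and with the spike-in level in that place all 3 were 0, as was the count of the 22 other glucocorticoid-induced genes. Leaving out SCA3 CCI-779 replicates 2 and 5 gave 1 in SCA3 mice, and leaving out wt CCI-779 replicate 1 as well gave 1. Leaving out single arrays gave 2 to 4 in SCA3 mice, 1 to 6 in wt mice and 4 to 9 for the mean. The replicate block, without the 1 array whose label has no number, gave 2, 3 and 9; the 24 same-numbered pairs correlated from -0.31 to 0.29, 9 of them over 0.1, so the numbers were not taken as pairs. Values that passed in one fit and changed sign were, with the spike-in covariate, Tsc22d3 at -0.36 and Sult1a1 at -0.10 for the mean of both genotypes. With the GAPDH covariate, Klf9 1436952_at was 0.65 in SCA3 mice, 0.74 in wt mice and 0.69 for the mean of both, and with all probe sets of a gene averaged, Nr3c1 was -0.086. Of all single values under alternatives 4647 kept their side of the threshold, 139 lost their call, 34 gained one and 6 changed sign as given above. Among values that were not called, 188 sign changes were counted. The alternatives for the gene lists, the correlations, the signs of the 10 genes and the wt GAPDH measure were chosen after seeing the data. Probe sets near the filter, such as Zbtb16 1427638_at, are limited by background.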
